A study of Mus musculus with 2 samples.

Results

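*Foxf1*, *Foxf2* and *Foxl1* encode transcription factors of the forkhead family, and each lies in the genome next to other genes of that family. The 8 genes examined here are these 3 together with their neighbours *Fendrr*, *Foxc2* and *Mthfsd* on chromosome 8 and *Foxq1* and *Foxc1* on chromosome 13. They were chosen by name, as all probes on the array that carry 1 of these 8 gene names, and they had 10 of the 39429 probes and 8 of the 29924 gene names on the array. Ureters of wildtype NMRI mouse embryos, of undetermined sex, were explanted at E11.5 and cultured for 18 h without serum in IWP-2 (10 µM), or in DMSO (2:1000) as control. RNA of a pool of treated ureters and RNA of a pool of control ureters were hybridised together on 1 two-colour array, and 2 such arrays were made from separate pools. On replicate 1 the treated pool was labelled with AlexaFluor647 and the control pool with AlexaFluor555, and on replicate 2 the dyes were exchanged. The explants hold all tissues of the ureter, so fewer cells of a type and less RNA per cell cannot be told apart.

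In the early ureter, the epithelium secretes WNT proteins and sonic hedgehog (SHH), and the mesenchyme around it responds to both. IWP-2 blocks PORCN, the enzyme that attaches the lipid which WNT proteins need for secretion. *Foxf1* and *Foxf2* are active in the mesenchyme of many tubular organs and are known to respond to hedgehog signals there. *Foxl1* marks mesenchymal cells close to the epithelium of the gut, and *Fendrr* is a long non-coding RNA that starts next to *Foxf1* and is transcribed away from it. *Foxc1* and *Foxc2* act with overlapping roles in the development of kidney, eye and blood vessels. *Foxq1* is best known from hair and stomach, and *Mthfsd* is no forkhead gene but encodes a protein with a folate-enzyme domain.

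Each value below is the hybridisation to a probe of 60 bases that was printed 4 times on each array. The sequences of the 3 probes with the lowest mean ratios are given 5′ to 3′. The value of *Foxf1* as a gene comes from its other, brighter probe, A_55_P2059765, whose sequence is not given. *Foxf1* had a probe on the plus strand at chr8:123610681-123610740 and *Fendrr* had its probe on the minus strand at chr8:123589495-123589554 (mouse build mm9, as given in the array files). Of the *Foxl1* probe (plus strand, chr8:123654402-123654461) only bases 31 to 60 are given. Capitals mark the 17 bases that it shares with a probe of *Gm38405*, which was itself not bright enough to be tested.
*Foxf1* probe A_51_P262111: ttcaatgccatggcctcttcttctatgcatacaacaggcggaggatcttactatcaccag
*Fendrr* probe A_55_P2115189: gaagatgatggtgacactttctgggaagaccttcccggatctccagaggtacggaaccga
*Foxl1* probe A_66_P103229, bases 31 to 60: gtatgccgtgcatCACACCTGTAATCTCAG
None of the other 9 probes of these genes shared 16 or more bases in a row, on either strand, with a probe of another gene. Whether a probe lies in a coding part or in a UTR was not determined here.

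With IWP-2, 5 of the 8 genes were lower. *Foxl1*, *Fendrr*, *Foxf1*, *Foxf2* and *Foxc2* passed a false discovery rate (FDR) of 0.05 in limma with lower values in treated ureters, whereas *Foxc1*, *Foxq1* and *Mthfsd* did not pass in either direction (0 called higher, and 1 higher at an unadjusted p under 0.05, *Foxq1*). Among all 20119 genes tested, 1.15% were called lower and 0.611% were called higher. At an unadjusted p under 0.05 in limma, 954 of all genes were lower and 1745 higher. The order of the decrease was *Foxl1*, then *Fendrr*, *Foxf1* and *Foxf2*, then *Foxc2*. With these ratios, which include an offset of 50 on each signal, the values of *Fendrr*, *Foxf1* and *Foxf2* overlapped. Processed signals without an offset or floor placed *Fendrr* lower, at a mean of -2.68, than *Foxf1* (-1.57) and *Foxf2* (-1.54). *Fendrr* entered the test through its control channel alone, and with a filter on both channels it was not tested. Counted by probe, 6 of the 10 probes were called lower, beside 1.23% of all 26947 probes kept. All 10 probes passed the filter on dim signals. The calls depend on how the spread is estimated. In the main fit, the SD of each gene was moved toward a value estimated from all genes. In a model of the separate channels with a term for the dye, 0 of the 5 passed, with adjusted p between 0.144 for *Foxl1* and 0.338 for *Foxf2* in limma, and 0 genes passed in all (881 lower and 1332 higher at an unadjusted p under 0.05).

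**Figure D1:**
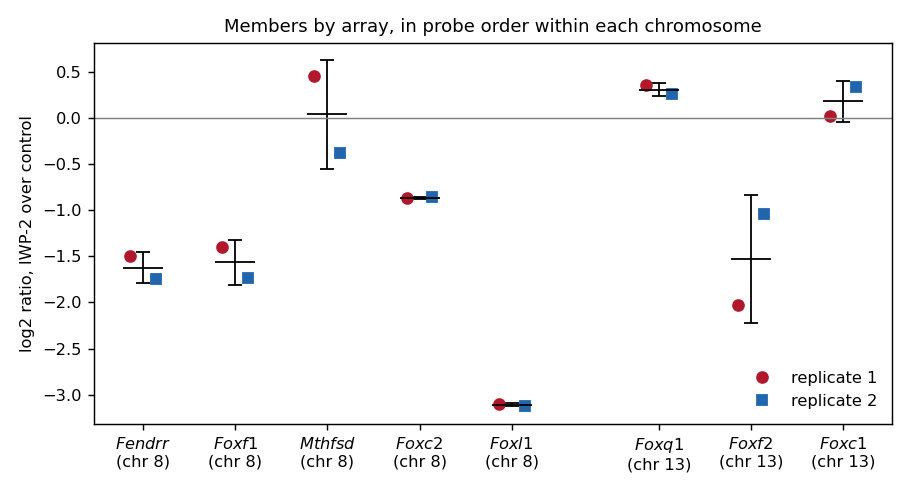
Log2 ratio of IWP-2-treated over control for the 8 genes, in the order of their probes on each chromosome. Circles show replicate 1, squares show replicate 2, and bars give the mean ± SD of both arrays. The 5 called genes lie below 0 on both arrays, and the symbols of *Mthfsd* lie on opposite sides of 0.

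*Foxl1* showed the largest decrease of the 8. Its processed signal, as given by the scanner software after correction for background and dye, was 607 in the control and 59.8 in the treated channel of replicate 1. On replicate 2 it was 591 in the control and 53.0 in the treated channel. Both treated values lay far below both control values, and all spots were well above background in each channel. After normexp correction and loess normalization the log2 ratio was -3.10 on replicate 1 and -3.12 on replicate 2, which is an 8.62-fold decrease (mean -3.11 ± 0.02, SD, n = 2, adjusted p = 0.000212 in limma). This was the third lowest mean ratio among all genes tested. The processed signals gave a larger decrease, of 10.2-fold on replicate 1 and 11.2-fold on replicate 2.

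*Foxf1* was measured by 2 probes, which both fell. The brighter one (A_55_P2059765, plus strand, chr8:123611944-123612003) had processed signals of 5228 in the control and 2026 in the treated channel of replicate 1. On replicate 2 they were 4850 and 1422. The control values lay above the treated ones on both arrays without overlap. The log2 ratio was -1.40 on replicate 1 and -1.74 on replicate 2, a 2.96-fold decrease (mean -1.57 ± 0.24, SD, n = 2, adjusted p = 0.00389 in limma). The spots behind the first of these values were split. On replicate 1, one pair of spots gave -0.99 and -0.97 and the other pair -1.71 and -1.91, and none of these carried an outlier mark. On replicate 2, the 3 spots used lay between -1.76 and -1.73. The dimmer probe, whose sequence is given above, showed no such split. Its processed signals were 318 in the control and 76.4 in the treated channel of replicate 1, and 524 and 138 on replicate 2. Its log2 ratio was -1.91 on replicate 1 and -1.80 on replicate 2, with all 8 spots between -1.97 and -1.76. The mean of this probe was -1.85 ± 0.08 (SD, n = 2), a 3.61-fold decrease with an adjusted p of 0.000435 over all probes kept in limma.

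*Fendrr* fell together with *Foxf1*, but its probe was dim. Its processed signal was 48.8 in the control and 6.74 in the treated channel of replicate 1, and 86.8 in the control and 15.3 in the treated channel of replicate 2. The treated signals lay below both control signals. In the control channel all 4 spots were well above background on each array, and in the treated channel 2 of 4 were so on replicate 1 and all 4 on replicate 2. The treated level was thus measured on 1 of 2 arrays. The log2 ratio was -1.50 on replicate 1 and -1.74 on replicate 2 (mean -1.62 ± 0.17, SD, n = 2, adjusted p = 0.00239 in limma). This 3.08-fold decrease was computed after an offset of 50 had been added to each signal, which shrinks ratios of dim probes. The processed signals, without such an offset, gave a 5.67-fold decrease on replicate 2, the array on which both channels were measured.

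*Foxf2*, on the other chromosome, fell by an amount that differed between the arrays. Its probe (A_51_P248865, plus strand, chr13:31723139-31723198) had processed signals of 3462 in the control and 851 in the treated channel of replicate 1, a 4.07-fold decrease. On replicate 2 they were 4314 and 2065, a 2.09-fold decrease. Both treated values lay below both control values. The treated value of replicate 2 was above that of replicate 1, while the control values lay closer together. The log2 ratio was -2.02 on replicate 1 and -1.04 on replicate 2 (mean -1.53 ± 0.70, SD, n = 2, adjusted p = 0.0282 in limma). Only 0.606% of all genes tested had a larger SD. Its call was the least stable of the 5 and was lost in 8 of 14 other ways of processing the data, with adjusted p up to 0.421. The 4 spots were close to each other on each array, between -2.18 and -1.91 on replicate 1 and between -1.09 and -1.01 on replicate 2.

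*Foxc2*, which lies between *Foxf1* and *Foxl1*, showed the smallest decrease among the called genes. Its probe (A_51_P196444, plus strand, chr8:123642693-123642752) had processed signals of 6200 in the control and 3488 in the treated channel of replicate 1, and of 5938 and 3194 on replicate 2. The treated values did not overlap with the control values. The log2 ratio was -0.87 on replicate 1 and -0.86 on replicate 2, a 1.82-fold decrease (mean -0.86 ± 0.01, SD, n = 2, adjusted p = 0.0136 in limma). Of all genes, 94.8% had a larger SD between the arrays. The match depends on the loess normalization, and with centring on the median the ratios were -0.63 and -1.14.

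**Figure D2:**
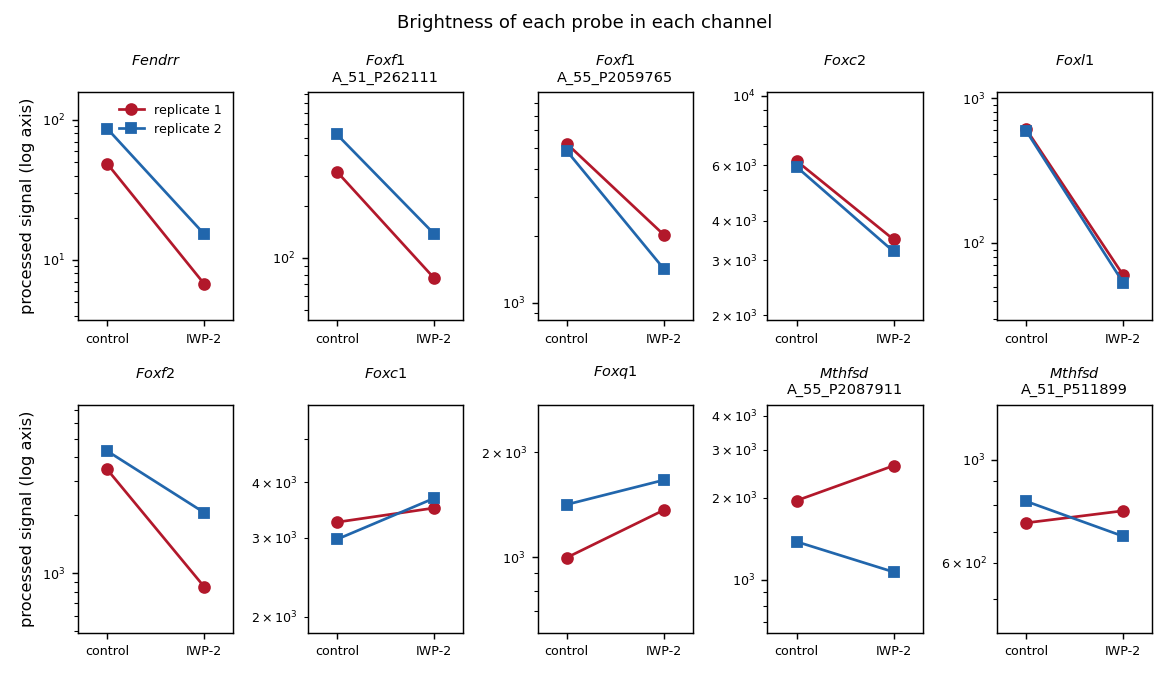
Processed signal of each of the 10 probes in the control and the IWP-2 channel, on a log axis of its own for each probe. Circles show replicate 1 and squares show replicate 2, and lines join the channels of an array. The lines of *Fendrr*, *Foxf1*, *Foxc2*, *Foxl1* and *Foxf2* fall on both arrays, and those of the *Mthfsd* probes cross or run in opposite directions.

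The forkhead neighbours of *Foxf2* were bright and were not called. *Foxc1* (A_55_P1967761, plus strand, chr13:31902423-31902482) had processed signals of 3254 in the control and 3500 in the treated channel of replicate 1, and of 2979 and 3679 on replicate 2. Its log2 ratio was 0.02 on replicate 1 and 0.33 on replicate 2 (mean 0.18 ± 0.22, SD, n = 2, adjusted p = 0.668 in limma). *Foxq1* (A_55_P2046877, plus strand, chr13:31652206-31652265) had 998 in the control and 1364 in the treated channel of replicate 1, and 1415 and 1663 on replicate 2. The treated channel was the brighter one on both arrays, though the treated value of replicate 1 lay below the control value of replicate 2. The log2 ratio of *Foxq1* was 0.35 and 0.25 (mean 0.30 ± 0.07, SD, n = 2, adjusted p = 0.244 in limma), so that it did not pass.

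*Mthfsd*, whose probes lie between those of *Foxf1* and *Foxc2*, had ratios of opposite sign on the arrays. Its brighter probe (A_55_P2087911, minus strand, chr8:123622781-123622840) had processed signals of 1951 in the control and 2621 in the treated channel of replicate 1, and of 1378 and 1067 on replicate 2. The log2 ratio was 0.45 on replicate 1 and -0.38 on replicate 2 (mean 0.04 ± 0.59, SD, n = 2, adjusted p = 0.988 in limma). Its second probe (A_51_P511899, minus strand, chr8:123621854-123621913) gave 0.06 and -0.22, again with opposite signs and a smaller difference.

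**Figure D3:**
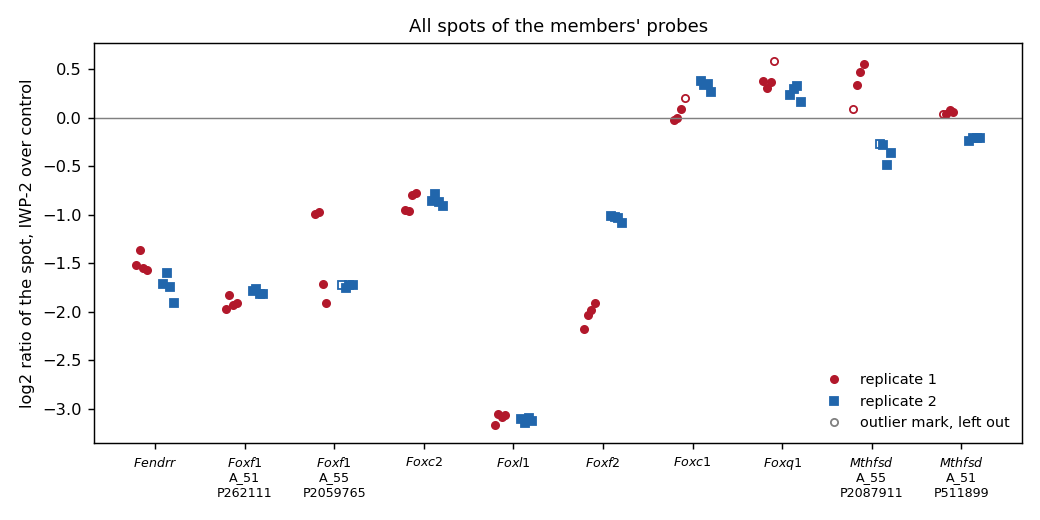
Log2 ratio of IWP-2-treated over control for all 4 spots of each probe, with replicate 1 as circles and replicate 2 as squares. Open symbols carried an outlier mark of the scanner software and were left out. The brighter *Foxf1* probe on replicate 1 splits into a pair near -1 and a pair below -1.7, and the spots of *Foxl1* lie between -3.16 and -3.06 on replicate 1 and between -3.15 and -3.09 on replicate 2.

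The study's methods filter by size alone. Requiring that both arrays show a change of 2-fold or more in one direction, and that the brighter channel reaches an intensity of 100, left 3 of the 8 genes as lower. These were *Foxf1*, *Foxf2* and *Foxl1*, beside 0.167% of all 29899 genes. *Fendrr* was too dim for this filter and *Foxc2* changed by too little. With a fold change of 1.5, *Foxc2* was included, and with a fold change of 3, *Foxl1* alone was left. When both channels had to reach 100, *Foxf1* and *Foxf2* were left and *Foxl1* was lost, since its treated signals were 59.8 and 53.0. No p-value is attached to this filter.

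The genes around both loci were examined to see how far the decrease reached. Within 1 Mb of the *Foxf1* probe, 26 genes were tested, 5 of which belong to the 8 genes. Of the other 21 genes, 0 passed FDR 0.05 in limma and 1 had an unadjusted p under 0.05, *Irf8*. Their mean log2 ratios lay between -0.23 and 0.29 with a median of -0.03. The called genes *Fendrr*, *Foxf1*, *Foxc2* and *Foxl1* lay between 22.4 kb on the one side and 42.5 kb on the other side of the *Foxf1* probe, and no other gene was tested in this stretch than *Mthfsd*. The nearest genes tested beyond it were *Irf8*, a transcription factor of macrophages and other blood cells, and *Fbxo31*, which encodes an F-box protein. *Irf8* lay 332 kb from the *Foxf1* probe and had a mean log2 ratio of 0.29 ± 0.11 (adjusted p = 0.273 in limma). *Fbxo31* lay 464 kb to the other side with 0.01 ± 0.03 (adjusted p = 0.995).

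Within 1 Mb of the *Foxf2* probe, 11 genes were tested and *Foxf2* alone passed FDR 0.05 in limma. Of the 8 genes there other than *Foxf2*, *Foxq1* and *Foxc1*, 0 passed and 1 had an unadjusted p under 0.05. This gene was *1700018A04Rik*, named here after its values were seen, with a probe 53.0 kb from that of *Foxf2* on the side of *Foxq1*. Its log2 ratio was -0.51 on replicate 1 and -0.64 on replicate 2 (mean -0.57 ± 0.09, SD, n = 2, adjusted p = 0.0509 in limma), so that it narrowly missed the threshold. Closer to *Foxf2* on the same side, 10.9 kb from its probe, *BY742470* had 0.06 ± 0.01 (adjusted p = 0.926 in limma). The nearest genes tested outside of *Foxq1* and *Foxc1* were *Gm5447*, with 0.05 ± 0.24, and *4930548F15Rik*, with 0.02 ± 0.09, and neither passed. *Gmds*, which encodes an enzyme of GDP-fucose synthesis and lies beside *Foxc1*, had 0.08 ± 0.09 (adjusted p = 0.899 in limma).

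**Figure D4:**
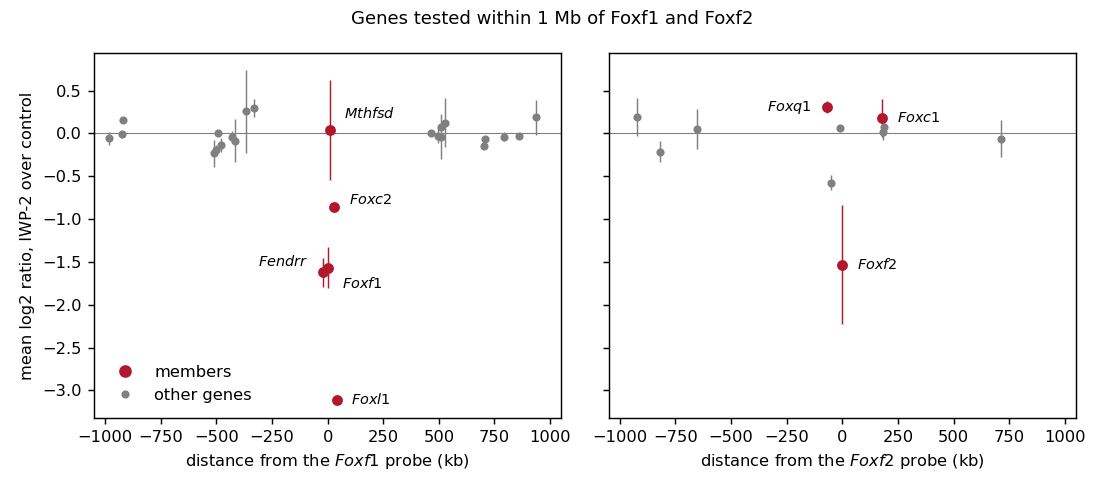
Mean log2 ratio of IWP-2-treated over control for all genes tested within 1 Mb of *Foxf1* (left) and *Foxf2* (right), by the distance of their probes in kb. Bars give the SD of both arrays, red points are the 8 genes and grey points the other genes. The other genes near *Foxf1* lie between -0.23 and 0.29, and the lowest of the other genes near *Foxf2*, *1700018A04Rik*, lies at -0.57.

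Most of the other forkhead genes did not pass the test. Of 46 names of this family on the array, among them antisense transcripts such as *Foxd2os*, 37 were tested. In limma, 5 were called lower and 0 higher, with a median log2 ratio of -0.03. At an unadjusted p under 0.05, 8 were lower and 4 higher, beside 954 lower and 1745 higher of all 20119 genes. The median of all genes tested was 0.00. Without the members of both clusters, 31 remained, of which 10 were lower and 6 higher on both arrays and 15 went in opposite directions. Of all genes tested, 27.5% were lower and 28.5% were higher on both arrays. Among these 31, only *Foxe1*, a gene best known from the thyroid, was called lower. In the treated channel its signal was too dim on both arrays to be well above background, and the decrease is therefore given only as at least 2.21-fold (adjusted p = 0.0058 in limma). This bound was computed per channel after loess and Aquantile normalization, against the lowest signal well above background. *Foxd1* and *Foxa2* had large differences between the arrays, with 0.89 and -0.36 for *Foxd1* and -1.54 and -0.22 for *Foxa2*, and did not pass. The other members of the FOXP, FOXO, FOXK, FOXN and FOXJ groups that were tested all lay between -0.38 and 0.35 in their mean, and none passed.

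**Figure D5:**
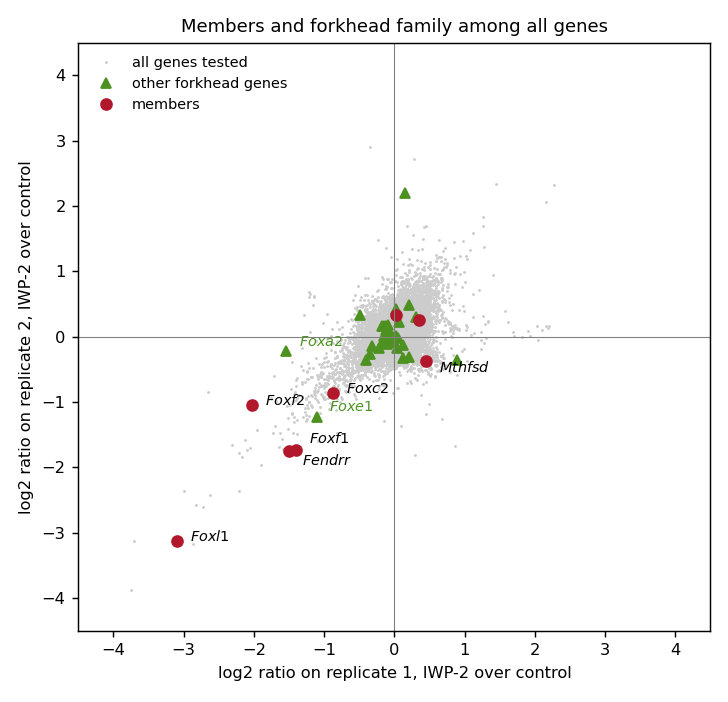
Log2 ratio of IWP-2-treated over control on replicate 1 (x axis) and replicate 2 (y axis) for all 20119 genes tested (grey), the 8 genes (red circles) and the other forkhead genes (green triangles). *Foxl1* lies at the lower left end, *Fendrr* and *Foxf1* lie on top of each other in these ratios with an offset of 50 (not in processed signals without a floor, with means of -2.68 and -1.57), and most other forkhead genes lie near 0.

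Genes of signaling pathways known to act on the ureteric mesenchyme were examined alongside. In limma, 1.15% of all 20119 genes tested were called lower and 0.611% higher. At an unadjusted p under 0.05, 954 of all genes were lower and 1745 higher. Of 14 genes of the hedgehog pathway, 3 were called lower and 0 higher in limma (1 higher at an unadjusted p under 0.05), with a median log2 ratio of -0.19. These 3 were *Ptch1*, the receptor of SHH, with -1.03, *Hhip*, an inhibitor that binds SHH, with -1.17, and *Gli1*, a transcription factor that is itself a target of the pathway, with -1.16. All 3 are known to rise and fall with pathway activity. The ligand gene *Shh* had -1.33 on replicate 1 and -0.44 on replicate 2 and did not pass (adjusted p = 0.0994). The transcription factor genes *Gli2* (-0.33) and *Gli3* (-0.22), the signal transducer gene *Smo* (-0.12) and the co-receptor genes *Gas1* (0.29), *Boc* (0.08) and *Cdon* (0.10) did not pass either.

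Of 13 genes that respond to WNT signals, 7 were called lower and 0 higher in limma (0 higher at an unadjusted p under 0.05), with a median of -0.84. Among them were the genes of the transcription factors LEF1 (*Lef1*, -0.89), TCF7 (*Tcf7*, -0.89) and SP5 (*Sp5*, -1.12). The others were *Tnfrsf19* (-0.73) and the genes of the WNT inhibitors *Wif1* (-0.84), *Nkd1* (-1.31) and *Apcdd1* (-1.27). *Axin2* had -1.38 and -0.64 and just missed the threshold (adjusted p = 0.0502). *Lgr5* (-0.41), *Dkk1* (-0.33), *Znrf3* (-0.25), *Notum* (-0.10) and *Rnf43* (0.00) did not pass either. Of 13 genes of the BMP pathway, 5 were lower and 0 higher (0 higher at an unadjusted p under 0.05), with a median of -0.53. These were the ligand gene *Bmp4* (-0.73), the target genes *Id1* (-0.82), *Id2* (-0.88) and *Id4* (-0.78), and *Msx1* (-0.96). Of 8 smooth muscle genes, 7 were tested and 0 passed in limma (4 lower and 0 higher at an unadjusted p under 0.05, median -0.27), and *Myh11* was not well above background in any channel. The decrease of *Foxl1* exceeded that of every gene called in these lists, and the decreases of *Fendrr*, *Foxf1* and *Foxf2* also exceeded them in the mean. These differences between genes were not tested.

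Markers of the tissues in the explants were examined in the same way, again beside 1.15% called lower and 0.611% called higher among all 20119 genes. At an unadjusted p under 0.05 in limma, 954 of all genes were lower and 1745 higher. Of 6 genes of the ureteric mesenchyme, in which *Foxf1* is known to be active, 2 were called lower in limma, *Tbx18* (-1.03) and *Tcf21* (-0.77), and 0 higher (0 at an unadjusted p under 0.05). The median of the list was -0.38, and *Osr1*, with -0.60 and -0.53, just missed the threshold (adjusted p = 0.0503). *Pdgfra* (-0.19), *Col1a1* (-0.07) and *Col3a1* (-0.07) did not pass. With centring on the median, 0 genes of this list were called. The summed processed signal of these 6 was 49555 and 49559 in the treated channels and 62628 and 51236 in the control channels. Of 7 markers of the ureteric epithelium, 0 passed (0 lower and 3 higher at an unadjusted p under 0.05, median 0.24), with sums of 45217 and 50256 in the treated and 44410 and 42352 in the control channels. Endothelial markers were higher on both arrays in 10 of 10 genes, as were 28.5% of all genes, with 3 called, *Sox17* (0.90), *Kdr* (0.74) and *Cldn5* (0.65), and a median of 0.47. Without background correction 1 of them was called, and 0 with processed signals or centring on the median. Their sums were 19182 and 17432 in the treated and 13775 and 10697 in the control channels. Macrophage markers were also higher on both arrays in 8 of 8 genes, of which *Adgre1* was called (0.92), with sums of 19187 and 17494 against 15282 and 12035. No macrophage marker was called under any of these other scalings. Of 6 nerve markers, 0 passed (5 higher at an unadjusted p under 0.05, median 0.36), and their sums were 35490 and 32952 against 24332 and 25499. The median of 6 markers of kidney mesenchyme was 0.56 on replicate 1 and -0.28 on replicate 2, and *Meox1* was called higher (0.96), though not with processed signals or centring on the median. Their sums were 18587 and 14241 in the treated and 14550 and 17654 in the control channels, so the sum was higher with IWP-2 on replicate 1 and lower on replicate 2. By gene, *Six2*, *Eya1* and *Foxd1* changed sign between the arrays. *Cited1* and *Meox1* were higher on both arrays, and *Wt1* was lower on both. All markers of these 6 lists were well above background in at least 1 channel. The part of these shifts in the values of the 8 genes was not tested.

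For each called gene, the 5 genes with the most similar pair of log2 ratios on the 2 arrays were listed, by their Euclidean distance. The gene closest to *Foxf1* among all 20119 was *Fendrr*, at a distance of 0.11. This match holds for the brighter *Foxf1* probe and for ratios with the offset. Processed signals without a floor gave -2.86 and -2.50 for *Fendrr* and -1.37 and -1.77 for *Foxf1*. *C030009J22Rik*, *Hottip*, *Slc24a4* and *Col23a1* followed, at 0.19 to 0.26. The gene closest to *Foxf2* was *Tfap2c*, with -1.97 and -1.07 at a distance of 0.06, followed by *Gcnt1* at 0.28. Few genes were near *Foxl1*, where *Hdc*, with -2.87 and -3.17, was the closest at 0.23, followed by *Thy1* at 0.50 and *Car3* at 0.60. *Foxc2* had its closest genes at 0.03 to 0.05, among them *Tmem200c* and *Frem1*. With only 2 arrays, such a match describes a pair of values and nothing else.

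Finally, the promoter windows were searched for short motifs. Of the 8 genes, *Fendrr*, *Foxf2*, *Foxc1* and *Mthfsd* matched an entry among 32851 windows of RefSeq, each from 250 bases before to 50 bases after a start site (build GRCm38.p6). The letters CTTTGAT and CTTTGTT, which LEF and TCF factors bind, were found in 0 of these 4 windows on either strand and in 9.33% of all windows. The letters GACCACCCA, bound by GLI factors, were found in 0 of the 4 and in 0.253% of all windows. The letters TGTTTAC, bound by forkhead factors, were found in 1 of the 4 and in 3.65% of all windows. This match lay in the window of *Fendrr*, on the opposite strand, and began 129 bases before the start. The 250 bases before the start of *Fendrr* (minus strand, chr8:121083111-121083360) and *Foxf2* (plus strand, chr13:31625566-31625815), the 2 called genes with an entry, read as follows, with the match in capitals.
*Fendrr*: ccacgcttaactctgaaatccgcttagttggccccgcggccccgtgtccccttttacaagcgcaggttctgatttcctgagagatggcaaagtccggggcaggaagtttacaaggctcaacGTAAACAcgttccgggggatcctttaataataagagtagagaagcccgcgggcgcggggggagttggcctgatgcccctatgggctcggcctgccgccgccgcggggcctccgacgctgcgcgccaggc
*Foxf2*: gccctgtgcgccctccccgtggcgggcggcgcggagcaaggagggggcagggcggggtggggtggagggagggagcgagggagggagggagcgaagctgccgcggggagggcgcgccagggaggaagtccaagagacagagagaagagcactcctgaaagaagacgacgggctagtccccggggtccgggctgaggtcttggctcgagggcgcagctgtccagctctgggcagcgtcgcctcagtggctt
Both were rich in G and C, with 62% in *Fendrr* and 71.6% in *Foxf2*, against a median of 52.4% over all windows. A match describes the letters only, and its absence says nothing on binding elsewhere.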

How the data were processed

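Per the file headers, the deposited scanner files hold the intensity of each spot and its local background in both channels from Feature Extraction 12.2.0.7 (the submitters' processing notes name 10.7.3.1), with processed intensities (background and dye corrected) and other columns that mark spots as outliers or well above background. The deposited series table holds a signed fold change, here taken as a score. Both arrays were on 1 slide and read in 1 scan. In R 4.3.3 with limma 3.58.1, mean intensities were corrected by normexp (offset 50) and log2 ratios normalized by loess within each array. In the 4 channels, 68.6% to 70.7% of spots exceeded background clearly, and 0 were saturated. Outlier spots were dropped and spots averaged. Probes were kept if over a share of 0.5 of their spots was well above background in one group on both arrays, and the brightest probe stood for its gene. The dye swap entered lmFit and eBayes as a sign, with Benjamini-Hochberg adjustment over all genes. The 2 arrays, which limit the precision, left 1 residual degree of freedom. With eBayes, the SD of each gene was moved toward a prior estimated from all genes, and the p-values rest on this moderated spread. The standard error used for *Foxl1* was 0.098 beside an SD of 0.02, and for *Foxf2* 0.216 beside 0.70. The p-values cover only these pools. The normalization and the fit were also run on simulated spots with planted changes. Their spread between arrays was drawn from the fitted prior, and the marks of the real spots were kept. That run therefore cannot test the prior or the filters that use these marks. Genes were named by a rule: the 8 genes with all probes, listed and neighbouring genes past FDR 0.05 or nearest to the clusters, marker lists with their members, and the 5 most similar genes. The genes, lists and alternatives were chosen with earlier results of these data known.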

Additional observations from a re-analysis of the deposited data

How the results depend on the processing

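The called genes kept their direction in all alternatives, and *Foxc1* and *Foxq1* were called in none. *Mthfsd* turned to -0.020 with the mean of its probes. The ratios are paired within each array, and no other pairing was run. On 1 array alone, without a test, log2 ratios ran from -1.74 to -1.40 for *Foxf1*, -2.02 to -1.04 for *Foxf2*, -3.12 to -3.10 for *Foxl1*, -1.74 to -1.50 for *Fendrr*, -0.87 to -0.86 for *Foxc2*, 0.02 to 0.33 for *Foxc1*, 0.25 to 0.35 for *Foxq1* and -0.38 to 0.45 for *Mthfsd*, and 3 genes passed the size filter on either array. At a fold change of 3 it left 1, and with 100 asked in both channels 2.

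Against 232 lower and 123 higher genes, 55 and 9 passed FDR 0.01, with 3 of the 5 called genes. Processed signals with a floor of 15 gave 0 lower and 0 higher genes (1108 and 1356 at an unadjusted p under 0.05), and 0 of the 5 passed. There *Foxf1* had -1.57, *Foxf2* -1.54, *Foxl1* -3.41, *Fendrr* -2.07 and *Foxc2* -0.86, with adjusted p of 0.396 to 0.407 in limma. The floor left 908 genes with no spread between arrays. Without it, an alternative chosen after seeing the data, 171 lower and 75 higher genes passed, and of the 5 only *Foxf2* did not (-1.54, adjusted p = 0.0683). Centring on the median in place of loess gave 36 lower and 7 higher genes, and *Foxc2* was lost (-0.89, adjusted p = 0.25), with ratios of -0.63 and -1.14 on the arrays. No background correction gave 74 higher genes. Without the filter on dim probes, 98 lower and 21 higher genes passed and *Foxf2* was lost (-1.53, adjusted p = 0.104), as with a robust prior (-1.53, 0.0615) and a trend with a robust prior (-1.53, 0.148). Higher genes numbered 224 with the mean of probes, 224 with a trend and 226 with a trend and robust prior. Separate channels without a dye term gave 84 lower and 9 higher genes, and 3 of the 5 passed, without *Foxf2* (-1.53, adjusted p = 0.19) and *Fendrr* (-1.62, 0.0874). With a dye term, which used the correlation of the fit without it, 0 lower and 0 higher genes passed and 0 of the 5, at *Foxf1* -1.57, *Foxf2* -1.53, *Foxl1* -3.11, *Fendrr* -1.62 and *Foxc2* -0.86. The rounded series table left 5038 genes with no spread and gave 1323 lower and 1037 higher genes. Of the 5, 1 passed, *Foxl1*, while *Foxf1* (-1.56), *Foxf2* (-1.55), *Fendrr* (-2.39) and *Foxc2* (-0.89) did not. With the filter on both channels, *Fendrr* was not tested. The cause of the other losses was not tested. Within 250 kb in place of 1 Mb, the called genes numbered the same, 4 near *Foxf1* and 1 near *Foxf2*. With centring on the median, called lower genes of the hedgehog, WNT and BMP lists fell to 0, 1 and 0, with medians of -0.22, -0.84 and -0.54. The dim signal of *Fendrr* limits the size of its change.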
